A study of Mus musculus with 14 samples.

Results

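Sirtuins are the NAD+-dependent protein deacylases, and the mouse genome has 7 genes of the family, Sirt1 to Sirt7. The 7 genes were taken by their symbols from a table of read counts for 56923 genes in 2-cell mouse embryos, and all 7 were found in it. The study removed lactate from early embryos and asked how gene expression responded around zygotic genome activation (ZGA), when the embryo starts its own transcription. Embryos came from superovulated ICR females mated with ICR males, and RNA was sequenced from 14 libraries of 5 pooled embryos each, in 7 conditions with 2 libraries per condition. By the study's methods, 5 of the 7 conditions shared 5 μM Gne140, an inhibitor of the lactate dehydrogenases LDHA and LDHB, together with 50 μM nicotinamide mononucleotide (NMN), a precursor of NAD+. G&N embryos received both agents in medium with 10 mM lactate, and G&N-L embryos received both in medium without lactate. G&N and G&N-L embryos were collected at the early 2-cell stage, 30 h post-hCG, and at the late 2-cell stage, 54 h post-hCG. By the paper, deprivation began in late zygotes for both collections, so that late embryos were exposed for longer than early ones. A further group of late 2-cell G&N-L embryos was injected with 1 mM Lac-CoA (lactyl-coenzyme A, the donor of lactyl groups). The last 2 groups, late H3K18R and late WT, carried neither Gne140 nor NMN and overexpressed mRNA of histone H3 with lysine 18 replaced or of wild-type H3. The treatment labels of the early libraries name Gne140 alone for G&N and Gne140 with NMN for G&N-L, and the label of the rescued group names CoA. The titles and methods were followed here. Were the labels right, early G&N embryos would also differ in NMN from the embryos they are compared with. Which libraries share a culture day is not given in the sources used here, so that the p-values below measure the spread between libraries, which may be partly technical.

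The family removes acetyl and longer acyl groups from lysine and consumes one NAD+ for each group removed. Sirt1, Sirt6 and Sirt7 are mainly nuclear and act on histones and transcription factors, Sirt2 is mainly cytoplasmic and acts on tubulin among other proteins, and Sirt3, Sirt4 and Sirt5 are mitochondrial. Oocytes supply the early embryo with maternal mRNA, much of which is cleared during the 2-cell stage while ZGA supplies new transcripts, so that the stage of collection by itself changes the level of many mRNAs.

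The libraries held 20350427 to 61275465 counts, and 18695 to 22647 genes were detected in each. Mitochondrially encoded genes took 2.17% to 3.85% of counts in early libraries, 5.65% to 6.84% in late libraries with Gne140 and NMN, and 10.6% to 12.2% in the H3K18R and WT libraries. Both H3K18R libraries held many reads of the H3 gene H3c1, 43643 and 83390 counts, beside 4 and 3 counts for WT, so that the overexpressed mutant was visible and an excess of H3c1 in the WT libraries was not. Of the 16 late 2-cell markers, 15 were in the table, and their summed level was 739 to 1080 CPM (counts scaled to a common library total) in early and 2563 to 4073 CPM in late libraries. The 20 maternal markers summed to 24915 to 34084 CPM in early and 4666 to 21324 CPM in late libraries. The 15 cumulus and granulosa cell markers summed to 9.48 to 40.9 CPM in every library. Amh and Inhba had 0 counts in all 14, while Cyp19a1 had 445 to 1169 counts in early and 0 to 363 in late libraries. Tnfaip6 had 0 counts in every early library and 13 to 401 in late ones, and Amhr2 0 to 3 and 48 to 570. The 11 markers of blood, endothelial, stromal, epithelial and trophectoderm cells summed to 55.6 to 109 CPM in early and 128 to 440 CPM in late libraries. Among them Hbb-bs had 0 counts in all 14, while Hba-a1 had 0 to 22 counts in early and 390 to 1565 in late libraries. Epcam had 38 to 198 counts in early and 2254 to 11570 in late libraries, and Gata3 1045 to 4755 and 11 to 854.

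The promoters of Sirt1 and Sirt4 are shown because these genes moved most in opposite directions between the stages. Each line is the 120 bases before the start of the Ensembl canonical transcript in GENCODE vM39, read 5′ to 3′ on the strand of the gene from GRCm39, with motif matches in capitals. The Sirt1 stretch is chr10:63174872-63174991 and the Sirt4 stretch is chr5:115622785-115622904, both on the minus strand. The annotated Sirt1 gene extends upstream to chr10:63217483. Its stretch therefore lies within the gene and precedes the canonical start, not the start of the annotated gene.
Sirt1: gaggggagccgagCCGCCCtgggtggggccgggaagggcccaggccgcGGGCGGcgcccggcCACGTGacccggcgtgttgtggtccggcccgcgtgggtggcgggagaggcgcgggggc
Sirt4: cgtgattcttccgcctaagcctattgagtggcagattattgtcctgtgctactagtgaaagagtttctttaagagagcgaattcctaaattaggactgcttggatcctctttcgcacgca
The motifs searched on both strands were the GC box GGGCGG, the CCAAT box CCAAT, the TATA box TATAAA, the E-box CACGTG, an ETS motif CCGGAAG and the bicoid-type motif TAATCC. Matches in the Sirt1 stretch were 2 GC boxes, one of them on the other strand, and 1 E-box. In the 250 bases before the Sirt1 start there were 4 GC boxes and 1 E-box, while 36.3% and 6.26% of the 21757 promoters of that length had at least 1 match. The 250 bases before the Sirt4, Sirt5 and Sirt6 starts had none of the 6 motifs. Those before Sirt3 had 3 GC boxes and 1 CCAAT box. Those before Sirt2 had 2 GC boxes and 2 CCAAT boxes, and those before Sirt7 had 1 GC box and 1 ETS motif. CpG dinucleotides numbered 38 before Sirt1, a number that 0.997% of promoters reached, 10 before Sirt4, 6 before Sirt5 and 5 before Sirt6, with a median of 8 over all promoters. There were 17 before Sirt3, 12 before Sirt2 and 12 before Sirt7. The Sirt1 stretch overlapped annotated exons of the noncoding RNA Gm66635 over 43 bases, and the Sirt4 stretch lay over its 120 bases in an exon of the noncoding RNA Gm57298, both on the opposite strand. The Sirt6 stretch lay in an exon of Ankrd24 and is not printed.

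On GRCm39 the genes lie at chr10:63154581-63217483 (Sirt1), chr7:28466160-28488090 (Sirt2), chr7:140443577-140462311 (Sirt3), chr5:115616065-115622784 (Sirt4), chr13:43518856-43550487 (Sirt5), chr10:81455262-81463631 (Sirt6) and chr11:120509197-120516066 (Sirt7). In GENCODE vM39, whose entries of these genes are newer versions than those counted, each shares part of its exons with a neighbour. The sources used here do not say whether counting used the strand. The largest shares were 12.5% of the Sirt1 exon bases with Herc4, 10.2% of Sirt4 with Gm57298 and 9.9% of Sirt2 with Gm19897, all on the opposite strand, and for Sirt6 2.4% with BC025920.

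The composition of the family differed between the stages. Per kilobase of exon, Sirt4 was the highest member in early embryos, and Sirt1 in late embryos of every condition. Sirt4 made up 61.1% ± 8.53 (SD, n = 2) of the summed per-length level of the 7 genes in early G&N and 62.5% ± 3.0 in early G&N-L embryos, with Sirt1 at 15.4% ± 8.91 and 16.3% ± 1.13. In late G&N embryos Sirt1 made up 79.7% ± 0.168 and Sirt4 6.61% ± 1.37. The share of Sirt1 was 61.1% ± 8.91 in late G&N-L, 79.3% ± 1.24 after Lac-CoA, 83.5% ± 3.36 in H3K18R and 85.3% ± 1.15 in WT embryos. Each of the 10 late libraries had a Sirt1 share of 54.8% to 86.1%, above the 9.10% to 21.7% of the 4 early libraries. With the length of the Ensembl canonical transcript in place of all exons, an alternative chosen after seeing the data, the share of Sirt4 was 47.8% in early G&N and that of Sirt1 65.8% in late G&N embryos, and the highest member was still Sirt4 in early and Sirt1 in late conditions.

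**Figure D1:**
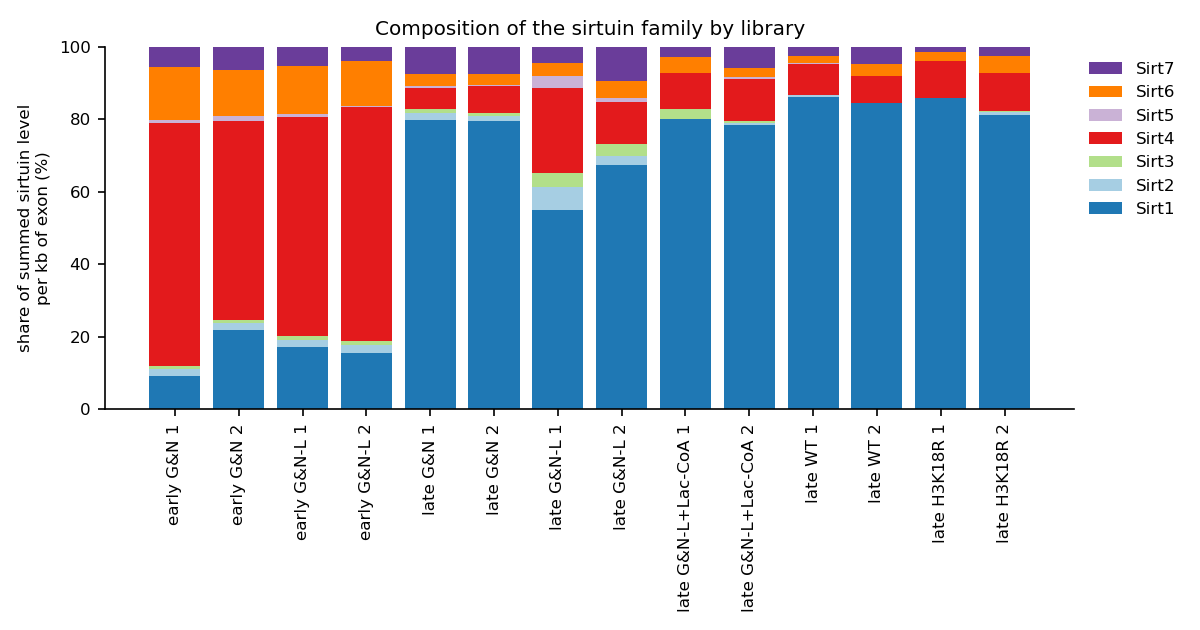
Stacked bars give the share of each sirtuin gene in the summed level of the 7 genes per kilobase of exon, in percent, for each of the 14 libraries. Sirt4 takes 55.1% to 67.2% in the early libraries and Sirt1 54.8% to 86.1% in the late libraries.

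Sirt1, the nuclear deacetylase of histones, p53 and FOXO factors, had its lowest group means in early and its highest in late embryos. Its level was 29.8 and 47.4 CPM in the early G&N libraries and 42.6 and 36.3 CPM in the early G&N-L libraries. In late embryos it was 138 and 138 CPM with lactate (G&N), 47.1 and 77.0 CPM without (G&N-L), and 115 and 152 CPM after Lac-CoA. The H3K18R libraries had 308 and 188 CPM and the WT libraries 351 and 350 CPM. In order of the means, WT stood above H3K18R, H3K18R above late G&N and Lac-CoA, and these above late G&N-L, each without overlap of libraries. Late G&N and Lac-CoA libraries overlapped, as did the early groups, and the lower late G&N-L library lay just below the highest early library. By the methods, WT and H3K18R embryos differ from the other late groups in Gne140, NMN and the injected mRNA at once. The agents therefore cannot be told apart in that gap. The mitochondrially encoded share of counts also differed, at 10.6% to 12.2% in these libraries against 5.65% to 6.84% in the other late ones.

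Sirt6, a nuclear deacetylase of histone H3 with a part in DNA repair and glycolytic gene control, had the opposite order of stages. It was at 55.8 and 32.7 CPM in early G&N and 38.5 and 34.0 CPM in early G&N-L libraries. The late levels were 6.79 and 5.74 CPM in G&N, 3.64 and 6.21 CPM in G&N-L and 7.41 and 5.56 CPM after Lac-CoA. H3K18R libraries had 9.87 and 12.6 CPM and WT libraries 8.74 and 15.9 CPM. All 4 early libraries stood above all 10 late ones, and the late libraries with Gne140 and NMN stood below those without.

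Sirt7, a nucleolar deacetylase linked to ribosomal RNA synthesis, had overlapping levels at both stages. Early libraries had 16.6 and 12.5 CPM in G&N and 12 and 8.38 CPM in G&N-L. Late libraries had 11.8 and 11.9 CPM in G&N, 3.41 and 9.71 CPM in G&N-L, and 3.57 and 10.1 CPM after Lac-CoA. H3K18R libraries had 4.84 and 5.13 CPM and WT libraries 9.52 and 18 CPM. Neighbouring conditions in the order of means overlapped throughout, and the H3K18R libraries lay below both WT libraries.

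Sirt2, the cytoplasmic tubulin deacetylase, was a low gene in these embryos. It had 6.02 and 4.12 CPM in early G&N and 4.71 and 5.17 CPM in early G&N-L libraries. In late embryos it had 3.39 and 2.43 CPM in G&N, 5.30 and 2.66 CPM in G&N-L, and 0 and 1.13 CPM after Lac-CoA. It had 0 and 1.84 CPM in H3K18R and 1.91 and 0 CPM in WT libraries. The 3 libraries with a count of 0 lay beside replicates with 49, 42 and 44 counts, so that replicates of one condition differed by more than the limit of 3 counts that a count of 0 allows, which is 0.0690 to 0.144 CPM in these libraries.

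Sirt4, a mitochondrial sirtuin that inhibits glutamate dehydrogenase and acts on lipoyl groups of pyruvate dehydrogenase, was the family's highest gene per length at the early stage. Its level was 108 and 59.0 CPM in early G&N and 73.9 and 74.4 CPM in early G&N-L libraries. It fell to 4.79 and 6.43 CPM in late G&N and 9.91 and 6.37 CPM in late G&N-L embryos, with 6.90 and 11.0 CPM after Lac-CoA. H3K18R libraries had 17.9 and 12.1 CPM and WT libraries 17.3 and 14.8 CPM. As for Sirt6, no late library reached the lowest early one, and the groups without Gne140 and NMN were the highest of the late groups.

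Sirt3, the main mitochondrial deacetylase, was at 4.89 and 3.14 CPM in early G&N and 4.64 and 4.12 CPM in early G&N-L libraries. Late libraries had 3.12 and 1.91 CPM in G&N, 5.15 and 6.13 CPM in G&N-L and 6.28 and 1.68 CPM after Lac-CoA. The H3K18R libraries, at 0.383 and 0.877 CPM, and the WT libraries, at 0.261 and 0.894 CPM, were below every other library.
Sirt5, the mitochondrial desuccinylase and demalonylase, had 4.14 and 4.53 CPM in early G&N and 4.11 and 0.997 CPM in early G&N-L libraries. Late libraries had 1.51 and 0.780 CPM in G&N, 4.71 and 2.40 CPM in G&N-L and 0.0920 and 2.24 CPM after Lac-CoA. It had no count in either H3K18R library, which allows up to 0.144 and 0.131 CPM, and 43 and 5 counts in the WT libraries. The spread between replicates of Sirt5 was as wide as its differences between most conditions.

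**Figure D2:**
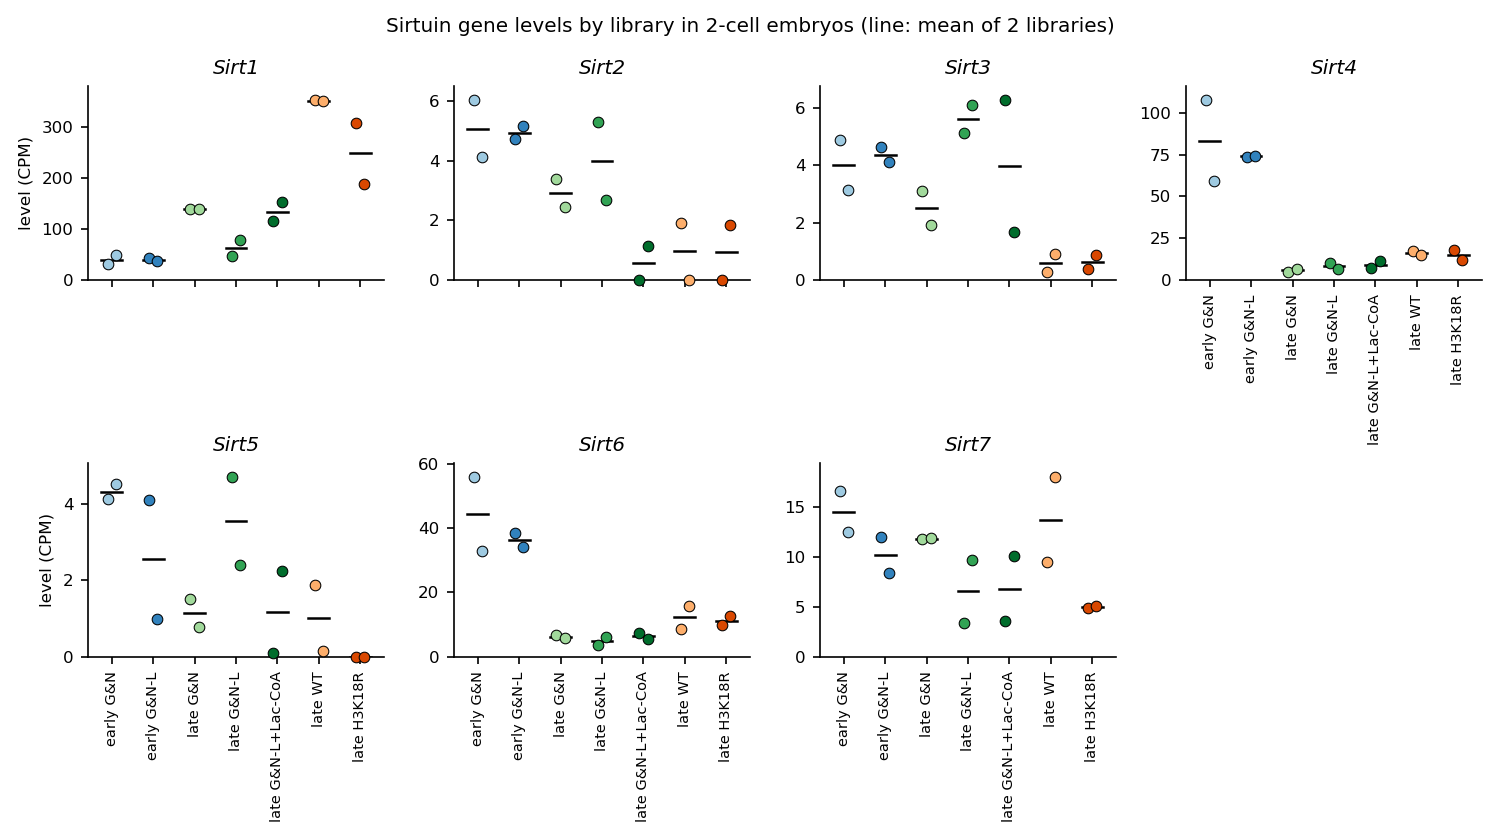
Each panel plots the CPM of 1 sirtuin gene in the 14 libraries by condition, with points for libraries and a line for the mean of 2. Sirt4 and Sirt6 are high in the 4 early libraries, and Sirt1 reaches 351 CPM in the late WT libraries.

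The stage comparison asked how the family changed while the embryo passed through ZGA with lactate. From early to late G&N embryos Sirt1 rose 3.33-fold (log2 fold change 1.74, SE 0.38, adjusted p = 0.0418), and Sirt4 and Sirt6 fell. Sirt4 was 15.3-fold lower (log2 fold change -3.94, SE 0.42, adjusted p = 0.00906) and Sirt6 7.30-fold lower (-2.87, SE 0.42, adjusted p = 0.0164). These 3 of the 7 genes passed an adjusted p of 0.05 by edgeR's quasi-likelihood test, against 13.7% of the 19443 genes tested, and DESeq2 called the same number of members and 30.5% of genes. Sirt2 (log2 fold change -0.85, SE 0.75), Sirt3 (-0.72, SE 0.83), Sirt5 (-2.0, SE 0.93) and Sirt7 (-0.36, SE 0.44) did not pass. The median of the 7 log2 fold changes was -0.85, and 0.08 over all genes. With library totals in place of TMM scaling the median of all genes moved to 0.46, where Sirt1, Sirt4 and Sirt6 were still called, Sirt7 changed sign, and calls over all genes split into 2005 higher and 618 lower in place of 1591 and 1063. Without late G&N replicate 1 no member was called, with adjusted p of 0.15, 0.0589 and 0.0802 for Sirt1, Sirt4 and Sirt6, and without late G&N replicate 2 the values were 0.140, 0.0542 and 0.0880. In these 2 fits the calls over all genes also dropped, to 220 and 283 from 2654. Without early G&N replicate 1 the adjusted p of Sirt1 was 0.0587.

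Without lactate, Sirt4 and Sirt6 also fell from early to late embryos, and Sirt1 did not pass the test. From early to late G&N-L embryos Sirt4 was 9.48-fold lower (log2 fold change -3.25, SE 0.33, adjusted p = 0.00887) and Sirt6 7.67-fold lower (-2.94, SE 0.41, adjusted p = 0.0172), 2 of 7 members against 11.8% of the 18604 genes tested, and DESeq2 also called 2 members and 27.9% of genes. Sirt1 had a log2 fold change of 0.59 (SE 0.30, adjusted p = 0.257). Sirt2 stood at -0.37 (SE 0.71), Sirt3 at 0.30 (SE 0.60), Sirt5 at 0.45 (SE 1.01) and Sirt7 at -0.70 (SE 0.66). The median over the members was -0.37, and 0.15 over all genes. Library totals moved the median of all genes to 0.51 and the split of calls from 1111 higher and 1092 lower to 1819 and 685, with Sirt4 and Sirt6 still called. Without late G&N-L replicate 1 Sirt6 had an adjusted p of 0.0682 and 1 member was called, with 335 genes called in all. The falls of Sirt4 and Sirt6 ran beside a lower sum of maternal markers in all late libraries. Of the 20 markers, 17 were lower and 3 higher from early to late G&N embryos. In G&N-L embryos 14 were lower and 6 higher. Btg4 held the most counts of the list in these embryos and weighed most in the sum. The part of the maternal markers in the result was not tested. Each library pooled 5 embryos, so that fewer embryos with an mRNA and less of it in every embryo cannot be told apart. Herc4, which shares exon bases with Sirt1, had log2 fold changes of 1.68 (adjusted p = 0.214) with lactate and 1.53 (adjusted p = 0.0894) without, and its part in the counts of Sirt1 was not tested.

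**Figure D3:**
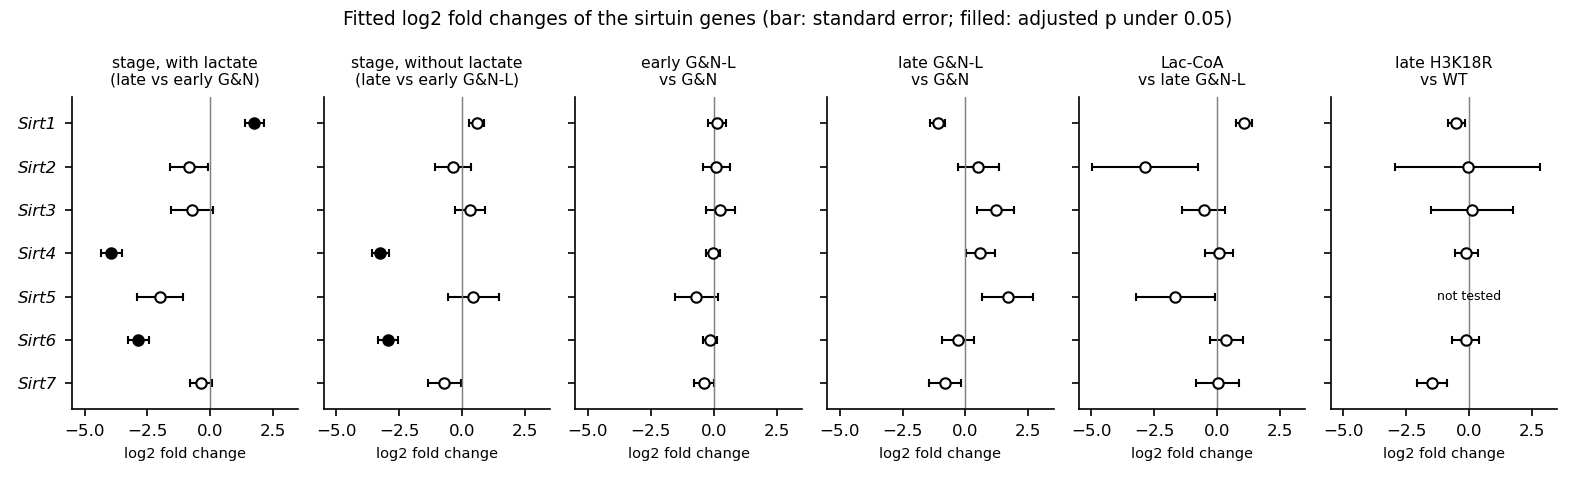
Points give the log2 fold change of each sirtuin gene in 6 comparisons, with bars of 1 standard error and filled points for an adjusted p under 0.05. The filled points are Sirt1, Sirt4 and Sirt6 between the stages with lactate, and Sirt4 and Sirt6 without it.

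Among late 2-cell embryos, Sirt1 was the member with the smallest p between G&N-L and G&N. Its level in G&N-L libraries, 62.0 ± 21.1 CPM (SD, n = 2), was 2.16-fold lower than the 138 ± 0.363 CPM of G&N libraries (log2 fold change -1.11, SE 0.30, adjusted p = 0.332). The test of edgeR called 0 of 7 members and 0% of 19481 genes. At an unadjusted p under 0.05, 2332 genes passed, among them 1 member, Sirt1. By a looser criterion (called the criterion from here on), which asks for a log2 fold change beyond 0.5 in size and for an unadjusted p under 0.05, Sirt1 passed with 11.9% of genes. DESeq2 called Sirt1 (log2 fold change -1.05, adjusted p = 0.0284) and 4.79% of genes. Over the alternatives with all libraries, the adjusted p of Sirt1 ran from 0.0284 to 0.540. Without late G&N-L replicate 1, whose Sirt1 level was the lower, the log2 fold change was -0.81 and Sirt1 was no longer past the criterion.

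The other members did not pass either threshold. Sirt3 stood at a log2 fold change of 1.2 (SE 0.73), Sirt5 at 1.67 (SE 1.02), Sirt4 at 0.59 (SE 0.57), Sirt2 at 0.50 (SE 0.81), Sirt6 at -0.31 (SE 0.63) and Sirt7 at -0.81 (SE 0.64). Of the 7 values 4 were positive and 3 negative, and without late G&N-L replicate 1 Sirt2 and Sirt6 changed sign. The median was 0.50, and -0.02 over all genes. Herc4 had a log2 fold change of -0.29 (adjusted p = 0.928) here. The maternal markers summed to 18254 and 21324 CPM without lactate and to 14847 and 16781 CPM with it. Of the 20 markers, 14 were higher and 6 lower without lactate. Btg4, with the most counts of the list, was at 11380 ± 520 against 7909 ± 1012 CPM. The late 2-cell markers summed to 2979 and 3485 CPM without lactate and to 2746 and 2972 CPM with it, with 10 higher and 5 lower. The part of either list in the result was not tested.

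**Figure D4:**
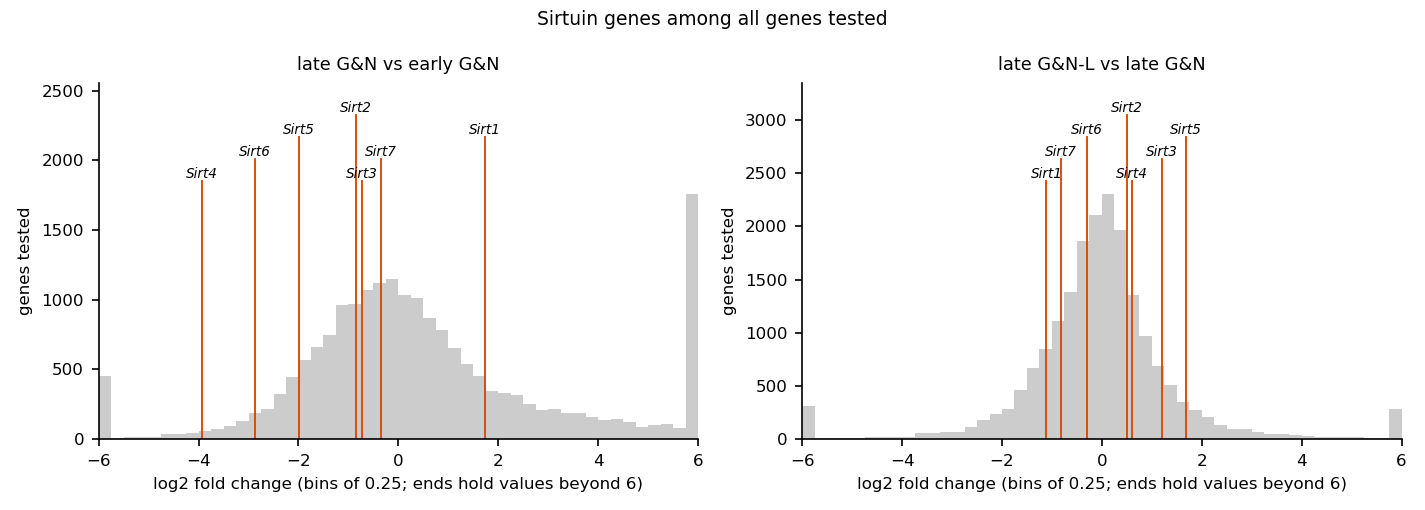
Grey bars count all genes tested by log2 fold change, in bins of 0.25 with values beyond 6 in the end bins, and lines mark the 7 sirtuin genes, for late against early G&N (left) and late G&N-L against late G&N embryos (right). Sirt4 at -3.94 and Sirt6 at -2.87 lie in the lower tail on the left, and the members lie between -1.11 and 1.67 on the right.

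At the early 2-cell stage no member passed a test between embryos with and without lactate. The log2 fold changes of G&N-L against G&N embryos were 0.12 for Sirt1 (SE 0.36), 0.10 for Sirt2 (SE 0.54), 0.26 for Sirt3 (SE 0.58), -0.02 for Sirt4 (SE 0.29), -0.69 for Sirt5 (SE 0.84), -0.15 for Sirt6 (SE 0.29) and -0.39 for Sirt7 (SE 0.38). By edgeR 0 of 7 members and 0% of 17343 genes were called. At an unadjusted p under 0.05 the counts were 0 members and 784 genes, the criterion was met by 4.50% of genes, and DESeq2 called 0 members and 0.219% of genes. Their median was -0.02, and -0.01 over all genes.

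The difference between the late and the early response was tested directly in the 8 libraries. Late embryos had also been without lactate for longer, so that stage and length of exposure cannot be told apart. For Sirt1 the interaction was -1.19 on the log2 scale (SE 0.50, adjusted p = 0.650), which met the criterion together with 7.55% of 22287 genes. The interaction was called for 0 of 7 members and 0% of genes by edgeR, at an unadjusted p under 0.05 for 1 member and 1683 genes, and by DESeq2 for 0 members and 1.07% of genes. Sirt1 met the criterion without early G&N replicate 2 (-1.62) and without late G&N-L replicate 2 (-1.57), and did not when any other of the 8 libraries was left out, with values of -1.22 to -0.83. Sirt5 had the largest interaction in size, 2.42 (SE 1.41). The values of the remaining members lay between -0.38 and 0.98.

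Injection of Lac-CoA addressed whether expression lost without lactate returns when lactyl groups are supplied. Sirt1 was 2.08-fold higher in Lac-CoA than in late G&N-L embryos, at 133 ± 26.3 CPM (log2 fold change 1.06, SE 0.31, adjusted p = 0.305). This comparison and the one of late G&N-L with G&N share the late G&N-L libraries. By edgeR 0 of 7 members and 0% of 19610 genes were called, and 1 member and 2609 genes had an unadjusted p under 0.05. Sirt1 met the criterion with 13.2% of genes, and DESeq2 called it (log2 fold change 1.04, adjusted p = 0.0348) with 6.20% of genes. The adjusted p of Sirt1 ran from 0.0348 to 0.387 over the alternatives with all libraries. Without late G&N-L replicate 1 its log2 fold change was 0.75, without Lac-CoA replicate 2 it was 0.86, and in both fits Sirt1 no longer met the criterion.

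Sirt4, at 0.08 (SE 0.57), Sirt6, at 0.35 (SE 0.65), and Sirt7, at 0.01 (SE 0.84), had log2 fold changes smaller than their SE against late G&N-L embryos. Sirt2 stood at -2.88 (SE 2.10), Sirt3 at -0.54 (SE 0.87) and Sirt5 at -1.67 (SE 1.57), with low counts in Lac-CoA replicate 1 for Sirt2 and Sirt5. Without Lac-CoA replicate 2 these last 2 genes met the criterion, since the remaining library held 0 and 4 counts. The maternal markers summed to 15735 and 11840 CPM in the Lac-CoA libraries. Against late G&N-L embryos 17 of the 20 were lower and 3 higher, and their part in these values was not tested.

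Against late G&N embryos, the log2 fold change of Sirt1 after Lac-CoA was 0.04 (SE 0.25). None of the 7 members passed, with 0% of 19613 genes called by edgeR, 0 members and 1670 genes at an unadjusted p under 0.05, 8.51% of genes past the criterion, and 0 members and 2.43% of genes called by DESeq2. Without Lac-CoA replicate 2, Sirt2 met the criterion with 0 counts in the remaining Lac-CoA library. Sirt4 stood at 0.77 (SE 0.58), Sirt3 at 0.75 (SE 1.01), Sirt6 at 0.14 (SE 0.59), Sirt5 at 0.10 (SE 1.74), Sirt7 at -0.70 (SE 0.65) and Sirt2 at -2.28 (SE 2.11).

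Overexpression of H3K18R asked for the effect of H3 that cannot be modified at lysine 18. The WT libraries showed no excess of H3c1, with 4 and 3 counts against 43643 and 83390 in H3K18R. The change at lysine 18 and the amount of overexpressed H3 therefore cannot be told apart here. Sirt7 had the largest fitted difference, 2.76-fold lower in H3K18R than in WT libraries (log2 fold change -1.46, SE 0.59, adjusted p = 0.785), with 4.98 ± 0.204 against 13.8 ± 6.0 CPM (SD, n = 2). Sirt1 was at 248 ± 84.9 CPM against 351 ± 0.829 CPM (log2 fold change -0.50, SE 0.33, adjusted p = 0.879). Sirt5 was left out by the filter on low counts, and of the 6 members tested edgeR called 0, with 0.00565% of 17704 genes, and 0 members and 1141 genes had an unadjusted p under 0.05. The criterion was met by 0 members and 6.44% of genes, and DESeq2 called 0 members and 0.678% of genes. Without H3K18R replicate 1, the library with the higher Sirt1 level, Sirt1 met the criterion at a log2 fold change of -0.91. Sirt4 (-0.10, SE 0.46), Sirt6 (-0.13, SE 0.54), Sirt2 (-0.05, SE 2.89) and Sirt3 (0.12, SE 1.64) had log2 fold changes smaller than their SE. The maternal markers summed to 5181 and 10066 CPM with H3K18R and to 4851 and 4666 CPM in the WT libraries. Of the 20 markers, 16 were higher and 4 lower with H3K18R, and their part in these values was not tested.

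Genes of NAD+ and deacylase biology outside the family were counted in the same fits. Of the zinc-dependent deacetylases, the second family of lysine deacetylases, 1 of 9 tested rose from early to late G&N embryos and 0 fell. Over all genes, 13.7% were called in either direction. The deacetylase that rose was Hdac1, at 63.6 ± 27.6 against 4.63 ± 2.85 CPM (log2 fold change 3.74, SE 0.59, adjusted p = 0.0202). Of the NAD+ synthesis genes, 2 of 15 rose and 0 fell. Nmnat1, the nuclear enzyme that turns NMN into NAD+, rose from 1.72 ± 1.70 to 39.8 ± 9.73 CPM (log2 fold change 4.52, SE 0.86, adjusted p = 0.0311), and Naprt, of the nicotinic acid route, went from 0 counts in both early libraries to 2.89 ± 0.295 CPM. The list's median was 0.71, and the share called, 2 of 15, was near the 13.7% of all genes.

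Other enzymes that use NAD+ or act on ADP-ribose gave 2 of 17 genes that rose and 1 that fell in the same comparison. The share of all genes called there in either direction was 13.7%. Parp10, a mono-ADP-ribosyltransferase, went from 0 counts in both early libraries to 22.4 ± 3.01 CPM. Parp2, which acts in DNA repair, rose by 1.86 on the log2 scale (SE 0.38), and Macrod2, which removes ADP-ribose, fell by 1.79 (SE 0.31). Of the regulators and substrates of sirtuins, 3 of 25 rose and 2 fell, beside the same 13.7% of all genes. The 3 with the smallest p are named here, and the 2 that fell are not among them. The acetyltransferase Ep300, which opposes Sirt1 on shared substrates, rose by 2.26 (SE 0.39), the deubiquitinase Usp22 by 3.36 (SE 0.61) and the complex I subunit Ndufa9 by 2.40 (SE 0.31). From early to late G&N-L embryos 0 of 13 NAD+ synthesis genes were called, 1 of 8 zinc-dependent deacetylases fell (Hdac8, by 2.39 on the log2 scale, SE 0.52), 1 of 16 other NAD+ users rose (Parp10) and 1 fell (Macrod2), and 2 of 23 regulators and substrates rose (Ndufa9 and Ep300), against 11.8% of all genes called in either direction. For Naprt and Parp10 no fold is given, since their early libraries were at 0.

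With and without lactate at the late stage, 0 genes of these 4 lists were called by edgeR. By the criterion, 1 of 9 zinc-dependent deacetylases was lower, and of 15 NAD+ synthesis genes 1 was higher and 1 lower. Of 17 other NAD+ users 2 were higher, and of 24 regulators or substrates 1 was higher and 4 lower, against 11.9% of all genes. Nmnat1 was at 14.4 ± 1.84 CPM without lactate against 39.8 ± 9.73 CPM with it (log2 fold change -1.41, SE 0.35, adjusted p = 0.324). Nadsyn1, the NAD+ synthesis gene that was higher, was at 14.2 ± 1.64 against 2.44 ± 2.47 CPM (log2 fold change 2.56, SE 0.95, adjusted p = 0.371). Usp22, which removes ubiquitin from Sirt1 and from histones, was at 6.11 ± 0.630 against 42.4 ± 26.3 CPM (log2 fold change -2.73, SE 0.54, adjusted p = 0.313), and at 39.3 ± 12.8 CPM after Lac-CoA (2.63 against G&N-L, SE 0.41, adjusted p = 0.294). Foxo3, a deacetylation target of Sirt1, was at 297 ± 23.6 against 159 ± 23.0 CPM (log2 fold change 0.96, SE 0.20, adjusted p = 0.313).

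In the remaining comparisons edgeR also called 0 genes of the 4 lists, and the counts past the criterion are given beside the share of all genes past it. Lac-CoA against late G&N-L embryos had 1 other NAD+ user higher (Parp2) and 1 lower (Macrod2), and 4 of 24 regulators or substrates higher and 2 lower, against 13.2% of all genes. Lac-CoA against late G&N embryos had 1 of 15 NAD+ synthesis genes lower, 2 of 17 other NAD+ users higher (Parp10 and Tnks2), and 2 regulators or substrates higher and 2 lower, against 8.51% of all genes. H3K18R against WT embryos had 1 of 13 NAD+ synthesis genes (Slc12a8), 1 of 18 other NAD+ users (Tnks) and 1 of 24 regulators or substrates (Senp1) higher and 0 lower, against 6.44% of all genes. Early G&N-L against early G&N embryos had 1 of 12 NAD+ synthesis genes (Slc25a51) and 1 of 23 regulators or substrates (Sod2) lower, against 4.50% of all genes. The interaction passed the criterion for 1 of 9 zinc-dependent deacetylases, 2 of 15 NAD+ synthesis genes, 3 of 18 other NAD+ users and 3 of 24 regulators or substrates, against 7.55% of all genes.

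Among genes with a mean of at least 5 CPM, those closest to Sirt1 over the 14 libraries were Ss18l2, Otud6b and Naa15, with mean absolute differences of 0.180, 0.182 and 0.199 on the centred log2 CPM scale, over 8630 genes compared. Pcgf1, Hsp90aa1 and Rbbp7 were closest to Sirt4 (0.371, 0.371 and 0.381), and Chmp5, Hsp90aa1 and Sub1 to Sirt6 (0.292, 0.307 and 0.311), so that Hsp90aa1, a cytosolic chaperone, was among the nearest genes of both. Pes1, Aamp and Chmp1b were closest to Sirt7 (0.368, 0.372 and 0.383) and Spg21, Spin3-ps and Hectd2 to Sirt3 (0.389, 0.427 and 0.461). The low genes Sirt2 and Sirt5 had no near pattern, with closest distances of 0.825 (Fmo4) and 1.04 (Tmem260). These distances are descriptions over libraries that share the stage difference.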

How the data were processed

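Per the submitters' processing notes and methods, FastQC and Trim Galore came before HISAT2 alignment (build mm39), and featureCounts gave the gene counts. The deposited values are whole-number raw counts per gene. The version of the annotation and the strand setting are not given in the sources used here. The study states 3 replicates per group, and 2 libraries per group were analysed here. Columns named K18A were matched to the H3K18R libraries. The members and lists were chosen with earlier results of these data known.

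Fits used the 4 libraries of the comparison (8 for the interaction) in R 4.3.3 with edgeR 4.0.16 (default low-count filter, TMM scaling, quasi-likelihood F test, two-sided, Benjamini-Hochberg adjustment over all genes tested). A gene was called at an adjusted p under 0.05. DESeq2 1.42.0 was an alternative. The SE of a log2 fold change was its size divided by the root of F. Fitted fold changes used a prior count of 0.125, and log2 levels one of 2. CPM used TMM over 14 libraries. Levels per length used merged exons of GENCODE vM39, where 56236 of 56923 identifiers were found with the version ignored. Every member has a newer version there than in the counts, so that its exons may differ from those counted. With 2 libraries a group, the smallest two-sided p of an exact permutation test is 0.333, so none was run. A count of 0 allows up to 3 counts, 0.0589 to 0.144 CPM, for counting error only, since amplified reads are not independent molecules. Replicates differed by more than counting noise (chi-square per degree of freedom 51.9 to 216). Same-numbered libraries did not deviate together (r from -0.0510 to 0.0216), so the numbers were not treated as pairs. The scripts were tested on simulated counts. Named genes of the other lists were, per list and comparison, up to 3 with the smallest p, and similar genes the 3 nearest, without symbols that start with Gm or end with Rik.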

Additional observations from a re-analysis of the deposited data

How the results depend on the processing

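With 2 libraries per condition, several calls changed when 1 library was left out. DESeq2 raised members called from 0 to 1 (Sirt1) in late G&N-L against G&N and in Lac-CoA against late G&N-L, and all 14 libraries in one fit raised members past the criterion from 0 to 1 (Sirt5) in H3K18R against WT. All 14 libraries in one fit turned Sirt2 in early G&N-L against G&N to -0.038 and Sirt1 in Lac-CoA against G&N to -0.048. The replicate block turned Sirt4 in early G&N-L against G&N to 0.014, Sirt5 in Lac-CoA against G&N to -1.08 and Sirt2 in H3K18R against WT to 0.22, and changed no call of a member. Library totals turned Sirt2 in H3K18R against WT to 0.0062 and Sirt7 in late against early G&N to 0.021. DESeq2, and its size factors within edgeR, turned Sirt7 in Lac-CoA against G&N-L to -0.0016. The causes were not tested. The number of members called moved under no other alternative with all libraries. Shares by the canonical transcript were 47.8% (Sirt4, early G&N) and 65.8% (Sirt1, late G&N).

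Leaving out 1 library at a time, where a lone library is assumed to vary like the other group, members called ranged from 0 to 3 in late against early G&N and from 1 to 2 in late against early G&N-L. Members past the criterion ranged from 0 to 1 in late G&N-L against G&N, in Lac-CoA against G&N, in H3K18R against WT and in the interaction, and from 0 to 2 in Lac-CoA against G&N-L. Log2 fold changes that changed sign in at least 1 such fit ranged as follows. In late G&N-L against G&N they were -0.11 to 0.92 (Sirt2) and -0.72 to 0.013 (Sirt6). In early G&N-L against G&N they were -0.25 to 0.63 (Sirt1), -0.057 to 0.29 (Sirt2), -0.31 to 0.35 (Sirt4) and -0.40 to 0.16 (Sirt6). In Lac-CoA against G&N-L they were -1.80 to 0.12 (Sirt3), -0.27 to 0.44 (Sirt4) and -0.90 to 0.94 (Sirt7). In Lac-CoA against G&N they were -0.19 to 0.22 (Sirt1), -0.50 to 1.39 (Sirt3), -3.52 to 1.04 (Sirt5) and -0.092 to 0.32 (Sirt6). In H3K18R against WT they were -7.60 to 7.58 (Sirt2), -0.59 to 1.25 (Sirt3), -0.42 to 0.16 (Sirt4) and -0.48 to 0.36 (Sirt6). In late against early G&N-L they were -0.95 to 0.091 (Sirt2) and -0.23 to 1.71 (Sirt5). In the interaction they were -0.16 to 0.86 (Sirt2), -0.54 to 0.22 (Sirt6) and -1.31 to 0.18 (Sirt7). Over all genes, calls in late against early G&N moved from 2654 to 5937 by DESeq2, 5060 without a filter and 220 to 2446 with a library left out. In late against early G&N-L they moved from 2203 to 5182 by DESeq2 and 1391 with the replicate block. In late G&N-L against G&N they moved from 0 to 934 by DESeq2, 317 without a filter, 114 with at least 10 counts in every library and 11 in one fit of all libraries. Without a filter they were 42 in early G&N-L against G&N, 3 in Lac-CoA against G&N-L, 22 in Lac-CoA against G&N, 78 in H3K18R against WT and 361 in the interaction, and by DESeq2 38, 1215, 476, 120 and 239.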
